A study of Mus musculus with 65 samples.

Results

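Igfbp5 and the genes of its growth factor axis were followed in cerebellum RNA and in chromatin of conditional knockout mice for the transcription factors MEF2A, MEF2D or both. The axis was taken as 10 genes, listed by role: the ligands Igf1 and Igf2, the receptors Igf1r and Igf2r, the binding protein genes Igfbp2, Igfbp3, Igfbp4 and Igfbp5, and the protease genes Pappa and Pappa2. Igfbp5 was included because it fell in the knockouts and Pappa because it rose. The RNA values of these 2 genes are therefore given below as a description, without a test made here. Of the 10 genes, 9 were among the 15469 genes of the RNA table, and Pappa2 RNA was not analysed here, which left 7 genes whose RNA was tested.

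RNA was sequenced from cerebella of female C57BL/6 mice at postnatal day 22, in 3 conditional knockout lines, each with its own Controls. The 6 groups were MEF2A Control, MEF2A cKO, MEF2D Control, MEF2D cKO, MEF2AD Control and MEF2AD cKO, with 4 libraries each, where cKO stands for conditional knockout and MEF2AD for the loss of both factors. Histone H3 acetylation of the mark H3K27ac was measured by chromatin immunoprecipitation in the same 6 genotypes with 3 libraries each, and the authors also gave lists of MEF2A and MEF2D binding peaks. The labels name neither the Cre driver nor the alleles of the Controls, and the titles of the RNA libraries carry the word Rotarod, without saying whether the animals ran it. No label says that the libraries of a group came from separate animals, so p-values measure the spread between these libraries, which may be technical.

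Insulin-like growth factors are secreted peptides that act on neurons and glia through the receptor tyrosine kinase encoded by Igf1r, while the product of Igf2r takes up IGF2 for breakdown and carries lysosomal enzymes. Binding proteins hold the ligands outside the cell and can keep them from the receptor or carry them to it. The metalloprotease encoded by Pappa cuts binding proteins, among them the products of Igfbp4 and Igfbp5, and so frees the ligand. In the developing cerebellum IGF signalling is known for its part in the growth and survival of granule neurons.

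Igfbp5 (ENSMUSG00000026185) lies on chromosome 1 from 72858065 to 72874865 on the minus strand, and Igfbp2 (ENSMUSG00000039323) lies on the plus strand from 72824480 to 72852474, so their 3' ends face each other across 5591 bp (RefSeq, GRCm38.p6). The 250 bases before an annotated start of each are printed here because Igfbp5 RNA was lower in every knockout while that of its neighbour Igfbp2 was called in none. Igfbp2 has a further annotated start, whose 250 bases (chr1:72825137-72825386) are not printed. Capitals mark runs of at least 8 bases that are A or T, which any match to the MEF2 consensus would need at its centre.

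Igfbp5, chr1:72874866-72875115, minus strand: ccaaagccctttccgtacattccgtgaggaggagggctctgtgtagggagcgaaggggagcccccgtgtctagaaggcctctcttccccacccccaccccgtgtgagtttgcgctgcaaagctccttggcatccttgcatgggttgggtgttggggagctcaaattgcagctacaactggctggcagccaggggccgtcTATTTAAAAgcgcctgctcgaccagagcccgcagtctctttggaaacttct

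Igfbp2, chr1:72824230-72824479, plus strand: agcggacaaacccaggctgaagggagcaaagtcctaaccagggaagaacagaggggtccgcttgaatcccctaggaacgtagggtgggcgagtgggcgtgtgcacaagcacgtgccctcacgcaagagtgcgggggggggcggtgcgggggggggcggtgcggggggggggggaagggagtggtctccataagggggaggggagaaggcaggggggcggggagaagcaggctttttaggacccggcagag

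The Igfbp5 sequence held 1 such run, from 51 to 43 bases before the start, and the Igfbp2 sequence held none. Neither matched the MEF2 consensus motif, searched on both strands by its palindromic pattern. The RefSeq table gave 13 starts for 9 of the 10 genes and none for Pappa. None of the 13 matched the motif, while 958 of 32817 mouse promoters of this length did (2.92%). An A or T run of this length stood in 3 of the 13 starts and in 39.8% of all promoters.

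The libraries held between 9178139 and 23160475 reads in genes. RNA levels are given in CPM, counts per 1000000 reads in genes. Mef2a RNA fell from 207, 220.0, 229.7 and 232 CPM to 76.9, 97.9, 87.9 and 89.2 CPM in MEF2A cKO (log2 fold -1.33, SE 0.06; limma adjusted p = 5.4e-14) and from between 182 and 193 CPM to between 88.4 and 99.2 CPM in MEF2AD cKO. Mef2d RNA did not fall: it measured 359.5 to 387 CPM in MEF2D cKO against 306 to 357 CPM (log2 0.19, SE 0.08; limma adjusted p = 0.165), and 361 to 388 CPM in MEF2AD cKO against 276 to 316 CPM, where it was called higher (0.32, SE 0.08; limma adjusted p = 0.0170). These are reads over the whole gene, and which exons were deleted is not stated in the labels, so the reads give no check of the Mef2d label. Granule neuron markers were abundant in every library, none of the 14 at 0 reads. Of these 14, 1 was called higher in MEF2A cKO, 2 higher and 1 lower in MEF2D cKO and 2 higher in MEF2AD cKO. Of 8 measured granule progenitor markers, 1 was called higher in MEF2A cKO and 1 in MEF2D cKO. In MEF2D cKO 2 of 10 interneuron and unipolar brush cell markers were lower and 1 of 6 red blood cell markers was higher. No marker of Purkinje cells (11 genes), astrocytes and Bergmann glia (10), oligodendrocytes (10), microglia (10), endothelium (10), pericytes (9), meninges (12), choroid plexus (14) or brainstem (5 measured of 10) was called in a knockout by limma. Over all genes limma called 0.149% higher and 0.129% lower in MEF2A cKO. The shares were 2.6% and 2.31% in MEF2D cKO, and 1.16% and 1.26% in MEF2AD cKO.

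Igfbp5 RNA was lower in each of the 3 knockouts, least without MEF2A and most without both factors. In the MEF2A line it measured 324, 328, 327 and 372 CPM in Controls and 271, 280.4, 254 and 244 CPM in cKO. In the MEF2D line it measured 432.5, 431.5, 377 and 407 CPM in Controls and 188, 207, 189 and 149 CPM in cKO. In the MEF2AD line it measured 315, 372, 401 and 287 CPM in Controls and 85.0, 94.2, 112 and 116 CPM in cKO. In no line did the cKO libraries overlap the Controls, and the cKO mean stood at 77.7%, 44.4% and 29.6% of the Control mean. The 3 cKO groups did not overlap one another either, nor did the highest MEF2A cKO library (280.4 CPM) reach the lowest of all 12 Controls (287 CPM, MEF2AD Control 4).

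On the log2(CPM + 1) scale the Igfbp5 difference was -0.36 in MEF2A cKO, -1.17 in MEF2D cKO and -1.74 in MEF2AD cKO (SE 0.10 each). The authors' deposited table gives a log2 fold change of -1.80 in MEF2AD cKO against its own Controls and -1.87 against the Controls of all lines, and in the authors' deposited table of gene clusters Igfbp5 is 1 of 112 genes in cluster 4, out of 305 genes. Lower groups that do not overlap the Controls occurred in 1.76% of all genes in MEF2A cKO, 6.52% in MEF2D cKO and 2.86% in MEF2AD cKO; Igfbp5 was chosen on these contrasts, so nothing is read from its place among them. In whole cerebellum, fewer cells that make a transcript and less of it per cell cannot be told apart. The summed granule neuron markers ran from 8135 to 10036 CPM in MEF2AD Control and from 8481 to 10569 CPM in MEF2AD cKO, with MEF2AD Control 1 and MEF2AD cKO 4 lowest. The 5 brainstem markers summed to 26.5 and 18.9 CPM in MEF2AD Control 1 and 4 and to 12.2 and 18.2 CPM in MEF2AD cKO 3 and 4, and to at most 3.55 CPM in the other 20 libraries; their part in the values of the MEF2AD line was not tested. Igfbp5 was lowest among the MEF2AD Controls in Control 1 and 4 (315 and 287 CPM). Among the MEF2AD cKO libraries it was highest in cKO 3 and 4 (112 and 116 CPM). Without MEF2AD Control 1 and MEF2AD cKO 4, the 2 lowest in granule neuron markers, the Igfbp5 difference in MEF2AD cKO was -1.85. That choice was made after the data were seen, and MEF2AD Control 4 and MEF2AD cKO 3 stayed in the fit. Leaving out any 1 library kept the Igfbp5 difference in MEF2AD cKO between -1.83 and -1.66.

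**Figure D1:**
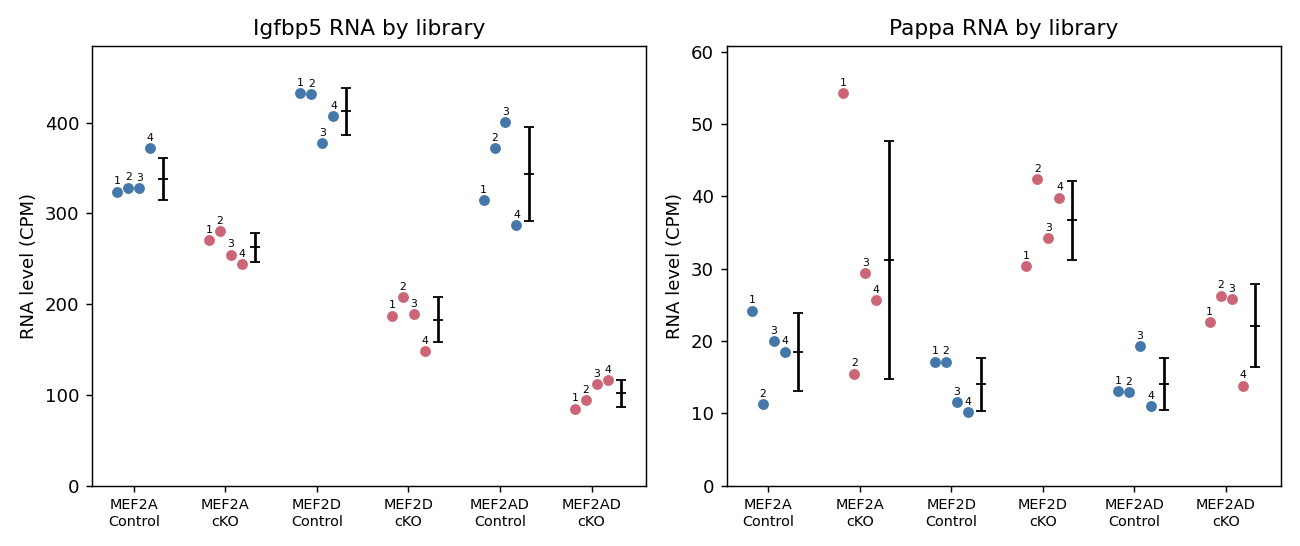
RNA level of Igfbp5 (left) and Pappa (right) in CPM, with 1 point for each library, numbered by its replicate, and the mean and SD of the 4 libraries beside the points. Igfbp5 stands in 3 steps in the cKO groups, at about 262, 183 and 102 CPM on average; Pappa clears its Controls in each library of MEF2D cKO only.

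The size of the Igfbp5 difference was set side by side across lines. Igfbp5 was chosen for its fall in these lines, which the SEs do not allow for, so the values are a description and no test. The MEF2AD difference minus the MEF2D difference was -0.57 (log2, SE 0.14), the MEF2AD minus the MEF2A difference -1.38 (SE 0.14), and the MEF2D minus the MEF2A difference -0.81 (SE 0.14). Each knockout has its own Controls in these values. The Controls were not level: MEF2D Control averaged 412 ± 26.0 CPM (SD, n = 4) against 338 ± 22.8 CPM in MEF2A Control and 343 ± 52.0 CPM in MEF2AD Control. No MEF2D Control library overlapped the MEF2A Controls. How many of all genes separate so was not counted, and limma called 24.1% of all genes between MEF2D and MEF2A Controls. From low to high the group means ran MEF2AD cKO, MEF2D cKO, MEF2A cKO, MEF2A Control, MEF2AD Control and MEF2D Control. MEF2A Control and MEF2AD Control overlapped, as did MEF2AD Control and MEF2D Control.

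Pappa (ENSMUSG00000028370; chromosome 4, 65124174 to 65357509), the protease gene of the axis, was higher in the knockouts by mean, with the order of the lines unlike that of Igfbp5. In the MEF2D line Pappa measured 17.2, 17.2, 11.6 and 10.2 CPM in Controls and 30.4, 42.3, 34.2 and 39.8 CPM in cKO. Every MEF2D cKO library was above every MEF2D Control, and the mean rose to 261% of the Control mean. In the MEF2A line it measured 24.2, 11.3, 20.03 and 18.5 CPM in Controls and 54.3, 15.5, 29.4 and 25.7 CPM in cKO. These groups overlapped, through the second cKO library. In the MEF2AD line it measured 13.1, 13.0, 19.3 and 10.96 CPM in Controls and 22.6, 26.3, 25.8 and 13.8 CPM in cKO. These overlapped as well, since MEF2AD cKO 4 lay inside the Control range.

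In the MEF2A line same-numbered libraries were taken as pairs, because their RNA deviated together (r 0.19 to 0.50). There Pappa was higher in the cKO library of each of the 4 numbers, by 2.24, 1.37, 1.47 and 1.39 times. It was also higher for each of the 4 numbers in the MEF2D and MEF2AD lines, where the numbers were not taken as pairs. How often other genes go the same way in all 4 numbers was not counted. The log2(CPM + 1) difference of Pappa was 0.63 in MEF2A cKO, 1.35 in MEF2D cKO and 0.61 in MEF2AD cKO (SE 0.27 each). Higher groups without overlap occurred in 1.91% of all genes in MEF2A cKO, 7.1% in MEF2D cKO and 3.3% in MEF2AD cKO. The difference between the MEF2AD and MEF2D values was -0.74 (SE 0.38). The authors' deposited table gives Pappa a log2 fold change of 0.749 in MEF2AD cKO against the line's own Controls (authors' adjusted p = 0.2243). Against the Controls of all lines it gives 0.627 (authors' adjusted p = 0.1275). Neither adjusted p passed the threshold used here. MEF2AD cKO 4, the lowest Pappa library of its group, was also the highest in Igfbp5 and the lowest of its group in summed granule neuron markers. Without it and MEF2AD Control 1 the Pappa difference in MEF2AD cKO was 0.78. In the MEF2A line its difference was 0.33 without MEF2A cKO 1, the highest Pappa library, and at most 0.91 without any other. The 8 measured granule progenitor markers summed to 98.2 to 108 CPM in MEF2A Control and 109 to 126 CPM in MEF2A cKO, and to 104 to 113 CPM in MEF2D Control and 117 to 122 CPM in MEF2D cKO, higher without overlap in both lines. These sums overlapped in the MEF2AD line, at 113 to 121 CPM in Controls and 108 to 135 CPM in cKO. The median log2 difference of the 8 markers was 0.042 in MEF2A cKO, 0.045 in MEF2D cKO and 0.014 in MEF2AD cKO. By limma 1 of the 8 was called higher in MEF2A cKO, 1 in MEF2D cKO and 0 in MEF2AD cKO. The part of cell composition in the Pappa values was not tested.

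Neither ligand gene was called in a knockout, at a limma adjusted p under 0.05 over all 15469 genes. Igf1 (ENSMUSG00000020053; chromosome 10, 87858265 to 87937047) stayed between 9.23 and 14.1 CPM in all 24 libraries. Its log2 difference was -0.09 in MEF2A cKO, 0.06 in MEF2D cKO and -0.16 in MEF2AD cKO, with 95% intervals of -0.28 to 0.10, -0.14 to 0.25 and -0.35 to 0.03 (limma adjusted p = 0.880, 0.807 and 0.659). In the MEF2A line Igf1 was lower in the cKO library of each of the 4 numbers, at 0.863, 0.960, 0.953 and 0.959 times its Control. It was also lower for each of the 4 numbers in the MEF2AD line, and higher for 2 of them in the MEF2D line. Other tested members went 1 way in all 4 numbers too, in lines where the numbers were not taken as pairs. Igf2 and Igf1r were lower so in the MEF2D line, and Igf2r was higher so in the MEF2D and MEF2AD lines. How often all genes do this was not counted. Igf1os overlaps Igf1 in the annotation, and whether the counting used strand is not given in the sources used here.

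Igf2 (ENSMUSG00000048583; chromosome 7, 142650768 to 142666816) measured 159, 135, 164 and 139 CPM in MEF2A Control and 180.2, 155, 149 and 177 CPM in MEF2A cKO. In the MEF2D line it measured 212, 229, 272 and 260.1 CPM in Controls and 185, 224, 231 and 203 CPM in cKO. In the MEF2AD line it measured 231, 193, 257 and 195 CPM in Controls and 155, 236, 174 and 174 CPM in cKO. The groups overlapped in each line, and the log2 differences were 0.15, -0.21 and -0.25 (SE 0.11 each; limma adjusted p = 0.824, 0.326 and 0.416). Igf2os and Mir483 overlap Igf2.

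Of the receptor genes, Igf2r was called higher in MEF2AD cKO, the 1 call among the 7 tested members in any knockout. Igf2r (ENSMUSG00000023830; chromosome 17, 12682406 to 12769706) measured 108, 124, 125 and 116 CPM in MEF2AD Control and 139, 137, 141 and 131 CPM in MEF2AD cKO. All 4 cKO libraries were above all 4 Controls, as in 3.3% of all genes. The difference was 0.21 (log2, SE 0.06; limma adjusted p = 0.0383), with a 95% interval of 0.10 to 0.33. Limma called 1.16% of all genes higher in MEF2AD cKO. Values in the MEF2D line were 128, 124, 132 and 128 CPM in Controls and 145, 124, 143 and 141 CPM in cKO, a difference of 0.11 (SE 0.06; limma adjusted p = 0.287). In the MEF2A line it measured 114, 113, 120.4 and 127 CPM in Controls and 111, 122, 120.0 and 107 CPM in cKO, a difference of -0.04 (SE 0.06; limma adjusted p = 0.913). The MEF2AD effect was not shown to differ from the MEF2A effect (0.26, SE 0.08; limma adjusted p = 0.217) or from the MEF2D effect (0.10, SE 0.08; limma adjusted p = 0.860).

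The Igf2r call in MEF2AD cKO was lost when the fit held the MEF2AD libraries alone (adjusted p = 0.108) and when MEF2AD Control 1, MEF2AD Control 4 or MEF2AD cKO 1, 2 or 3 was left out (adjusted p between 0.0889 and 0.177), and without both MEF2AD Control 1 and MEF2AD cKO 4 (0.19; adjusted p = 0.127). The authors' deposited table gives Igf2r an adjusted p of 0.0525 against the line's own Controls and 0.0338 against the Controls of all lines. Airn, a noncoding RNA transcribed antisense to Igf2r in mouse, overlaps it, and reads of both cannot be told apart if strand was not used.

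Igf1r (ENSMUSG00000005533; chromosome 7, 67952257 to 68233668) was not called. It measured 84.8, 86.0, 85.4 and 79.5 CPM in MEF2A Control and 90.5, 88.2, 92.7 and 58.7 CPM in MEF2A cKO, so 1 cKO library was far below the other 3. The MEF2D line had 76.8, 74.8, 64.1 and 63.7 CPM in Controls and 68.6, 59.9, 56.8 and 57.6 CPM in cKO. In the MEF2AD line it measured 73.7, 93.7, 96.6 and 90.3 CPM in Controls and 74.9, 89.9, 100.1 and 80.3 CPM in cKO. The differences were -0.05, -0.20 and -0.04 (log2, SE 0.11 each; limma adjusted p = 0.963, 0.368 and 0.984), with 95% intervals of -0.28 to 0.19, -0.43 to 0.04 and -0.27 to 0.20. Gm51487 and Gm51488 overlap Igf1r.

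The other 3 binding protein genes were called in no knockout by limma, edgeR or DESeq2. Igfbp2, the neighbour of Igfbp5, varied widely inside every group: 19.8, 23.1, 29.3 and 20.8 CPM in MEF2A Control and 33.8, 29.8, 24.7 and 38.2 CPM in MEF2A cKO, 14.9, 36.1, 35.6 and 20.6 CPM in MEF2D Control and 28.1, 39.3, 15.8 and 19.7 CPM in MEF2D cKO. Values in the MEF2AD line were 56.4, 22.1, 58.0 and 32.6 CPM in Controls and 14.6, 57.4, 32.0 and 39.0 CPM in cKO. The groups overlapped in each line and the differences were 0.43, -0.05 and -0.28 (log2, SE 0.34 each; limma adjusted p = 0.835, 0.962 and 0.929). With 95% intervals of -0.27 to 1.13, -0.75 to 0.65 and -0.98 to 0.42, smaller Igfbp2 changes were not detectable with these libraries.

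High Igfbp2 went with high markers of the choroid plexus, the tissue that secretes cerebrospinal fluid and can be carried along with a dissected cerebellum. Ttr, its transthyretin gene, stood between 4.92 and 9.47 CPM in 5 libraries and between 249.7 and 1675 CPM in the other 19. The 5 libraries were MEF2A Control 1, MEF2D Control 1, MEF2D Control 4, MEF2D cKO 3 and MEF2AD cKO 1. They held 14.6 to 20.6 CPM of Igfbp2, while the other 19 held 19.7 to 58.0 CPM. The 3 libraries highest in Igfbp2, MEF2AD Control 1, MEF2AD Control 3 and MEF2AD cKO 2, had 1497, 1675 and 1423 CPM of Ttr. The 14 choroid plexus markers summed to 38.2 to 939 CPM in MEF2A Control, 553 to 1674 in MEF2A cKO, 36.0 to 1490 in MEF2D Control, 39.0 to 1329 in MEF2D cKO, 314 to 1918 in MEF2AD Control and 35.5 to 1606 in MEF2AD cKO. Folr1 and Sostdc1 were at 0 reads in MEF2D Control 1, Folr1 in MEF2D cKO 3, and Sostdc1 and Tmem72 in MEF2AD cKO 1. The part of choroid plexus in the Igfbp2 values was not tested. Igf2 showed no such split, with 155 to 260.1 CPM in the 5 libraries and 135 to 272 CPM in the others.

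**Figure D2:**
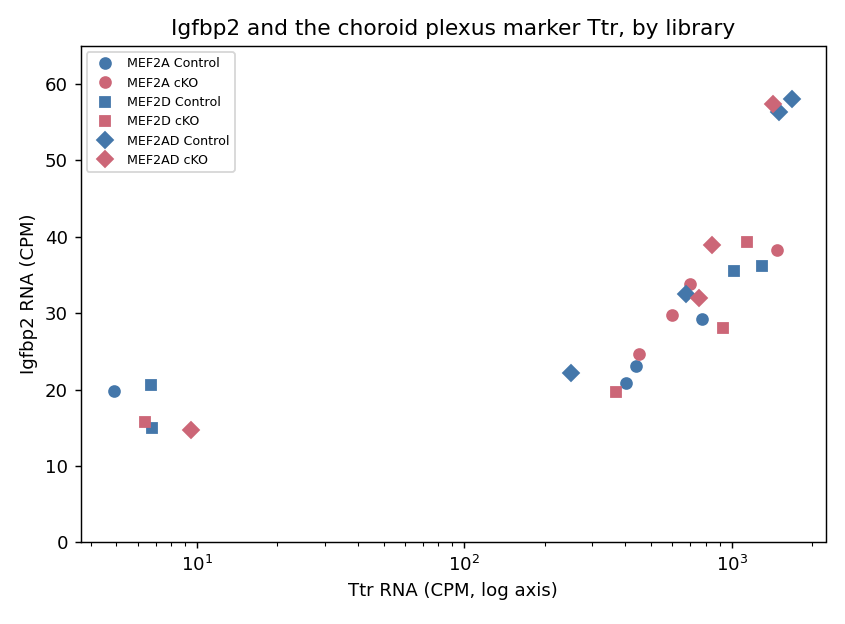
Igfbp2 RNA (CPM) against Ttr RNA (CPM, log axis), with 1 point for each of the 24 libraries, shaped by line and coloured by Control or cKO. The 5 libraries with Ttr under 10 CPM have at most 20.6 CPM of Igfbp2, and both Control and cKO libraries lie along the whole range.

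Igfbp3 (ENSMUSG00000020427; chromosome 11, 7206086 to 7215498) measured 21.1, 32.8, 20.6 and 19.3 CPM in MEF2A Control and 20.2, 34.8, 23.5 and 21.3 CPM in MEF2A cKO, with the second library high in both groups. It ran from 21.7 to 28.8 CPM in the 8 libraries of the MEF2D line. The MEF2AD line had 17.5, 33.9, 30.8 and 22.8 CPM in Controls and 18.7, 29.7, 36.6 and 21.6 CPM in cKO. The differences were 0.09, 0.01 and 0.02 (log2, SE 0.20 each; limma adjusted p = 0.959, 0.991 and 0.995), and that in MEF2D cKO turned to -0.0018 with edgeR on whole reads.

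Igfbp4 (ENSMUSG00000017493; chromosome 11, 99040005 to 99052655), which like Igfbp5 encodes a substrate of the Pappa protease, measured 14.3, 10.6, 13.2 and 14.2 CPM in MEF2A Control and 19.04, 14.5, 13.5 and 18.4 CPM in MEF2A cKO. The groups overlapped, and the difference of 0.30 (log2, SE 0.12) had an unadjusted p of 0.0186 and a limma adjusted p of 0.514. Igfbp4 was higher in the cKO library of each of the 4 numbers of the MEF2A line, by 1.33, 1.37, 1.03 and 1.30 times, and was not called with the replicate block either (limma adjusted p = 0.275). How often all genes go the same way in all 4 numbers was not counted. In the MEF2D line it measured 15.8, 15.9, 20.2 and 19.1 CPM in Controls and 17.97, 20.2, 17.3 and 18.8 CPM in cKO. Values in the MEF2AD line were 18.9, 16.6, 19.8 and 16.4 CPM in Controls and 22.8, 21.5, 15.6 and 18.7 CPM in cKO. The differences there were 0.07 and 0.12 (SE 0.12 each; limma adjusted p = 0.832 and 0.912).

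Limma thus called 0 of the 7 tested members in MEF2A cKO, 0 in MEF2D cKO and 1, Igf2r, in MEF2AD cKO. Over all genes it called 0.278%, 4.91% and 2.42% in the same contrasts (higher 0.149%, 2.6% and 1.16%; lower 0.129%, 2.31% and 1.26%). The MEF2A figure is 43 genes, or 116 with the replicate numbers as a block. At an unadjusted p under 0.05 the members numbered 1 in MEF2A cKO (Igfbp4), 0 in MEF2D cKO and 2 in MEF2AD cKO (Igf2r and Igf2), and edgeR and DESeq2 on whole reads called 0, 0 and 1. For no tested member was the knockout effect shown to differ between lines (0 of 7 in each of the 3 tests by limma; over all genes 0.103% for MEF2AD minus MEF2D, 0.0194% positive and 0.084% negative; 0.543% for MEF2AD minus MEF2A, 0.233% and 0.31%; and 0.0388% for MEF2D minus MEF2A, 0.00646% and 0.0323%). Only Igf2 and Igf2r reached an unadjusted p under 0.05 there: for MEF2AD minus MEF2A both did (0.018 and 0.00343), and for MEF2D minus MEF2A Igf2 did (0.033).

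**Figure D3:**
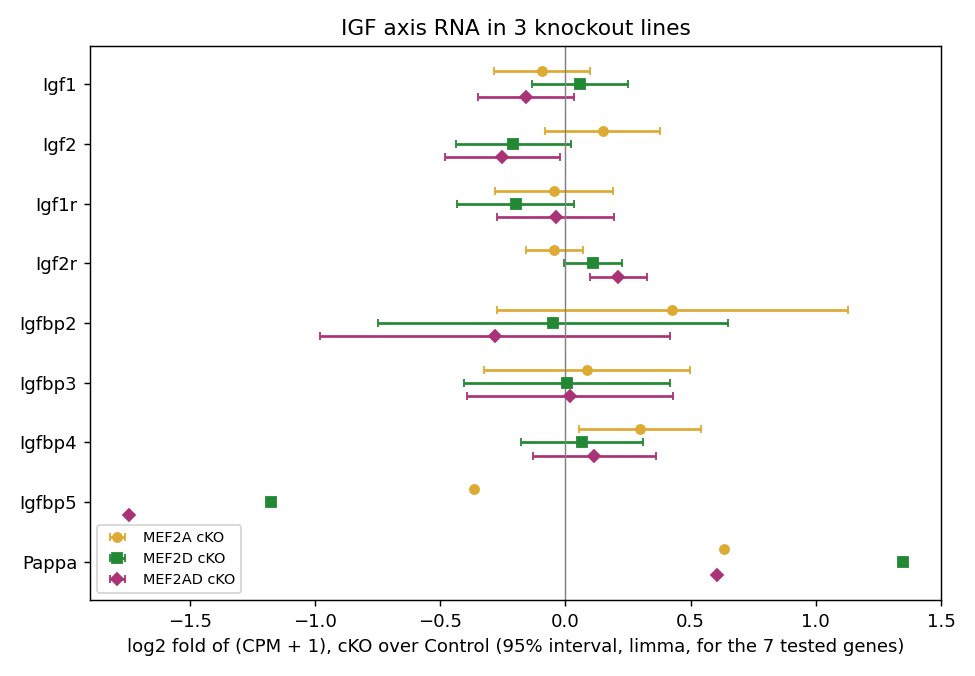
Log2 fold of (CPM + 1), cKO over the line's own Control, for 9 genes of the axis in 3 lines, with 95% intervals from the limma fit for the 7 tested genes. Igfbp5 and Pappa are drawn as points alone, since both were chosen for these differences; of the other 7 genes only Igf2r in MEF2AD cKO, at 0.21, was called after adjustment over all genes.

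The Controls of the 3 lines differed from each other in some members. Igf2 RNA was higher in MEF2D Control than in MEF2A Control by 0.70 (log2, SE 0.11; limma adjusted p = 7.0e-05) and higher in MEF2AD Control than in MEF2A Control by 0.55 (SE 0.11; limma adjusted p = 0.00587). In neither case did the groups overlap, and how many of all genes separate so between Controls was not counted. Igfbp4 was higher than in MEF2A Control by 0.42 in MEF2D Control (SE 0.12; limma adjusted p = 0.0123) and by 0.43 in MEF2AD Control (SE 0.12; limma adjusted p = 0.0317). Igf1r was higher in MEF2AD Control than in MEF2D Control by 0.34 (SE 0.11; limma adjusted p = 0.0464). All genes called in these comparisons, which share Control libraries, came to 24.1% for MEF2D against MEF2A (11.6% higher, 12.5% lower), 6.31% for MEF2AD against MEF2A (3.18% and 3.13%) and 15.4% for MEF2AD against MEF2D (7.68% and 7.71%). The line cannot be told apart from any batch in which its animals or libraries were handled.

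The Igf2 calls held without any single library. The Igfbp4 call between MEF2D and MEF2A Controls was lost without MEF2A Control 2 or MEF2D Control 3 (adjusted p = 0.0586 and 0.0523). That between MEF2AD and MEF2A Controls was lost without MEF2A Control 2 or 3 or MEF2AD Control 1 or 3, without MEF2AD Control 1 and MEF2AD cKO 4 together, and with those lines fitted alone (adjusted p between 0.0555 and 0.102). The Igf1r call was lost without MEF2D Control 3 or 4 or MEF2AD Control 2, 3 or 4 (adjusted p between 0.0969 and 0.126), and fell just short (0.0513 to 0.0534) without any of the 4 MEF2A Controls, MEF2D cKO 2, 3 or 4 or MEF2AD cKO 2.

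Beyond the members, 45 of 51 listed genes of IGF signalling were measured. In MEF2A cKO none passed by limma, edgeR or DESeq2, with 3 at an unadjusted p under 0.05. Limma called 1 higher and 1 lower in MEF2D cKO, where it called 4.91% of all genes, and 3 higher in MEF2AD cKO, where it called 2.42%. With edgeR and with DESeq2 the number was 2 in MEF2D cKO and 4 in MEF2AD cKO. The median log2 difference of the 45 genes was 0.004, 0.003 and -0.00005 in the 3 knockouts, beside -0.002, 0.005 and 0.0004 over all genes.

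Among 8 measured receptor adaptor genes, which couple the receptors to kinase cascades, 2 passed in MEF2D cKO and 1 in MEF2AD cKO. Shc2, the gene of an SH2 domain adaptor, rose from 31.9 ± 0.99 to 39.96 ± 0.91 CPM in MEF2D cKO (SD, n = 4; log2 0.32, SE 0.06; limma adjusted p = 0.0013) and from 35.3 ± 2.02 to 41.8 ± 1.87 CPM in MEF2AD cKO (0.24, SE 0.06; limma adjusted p = 0.0154). In MEF2A cKO Shc2 differed by 0.19 (limma adjusted p = 0.244). Irs2, an insulin receptor substrate, fell from 61.9 ± 6.15 to 46.9 ± 5.29 CPM in MEF2D cKO (-0.40, SE 0.10; limma adjusted p = 0.0186). The Shc2 call in MEF2AD cKO was lost without MEF2AD Control 2, MEF2AD Control 3 or MEF2AD cKO 1 (adjusted p 0.0716 to 0.0807) and with the line fitted alone (0.0933), and the Irs2 call without MEF2D Control 1 or MEF2D cKO 2 or 4 (0.0600 to 0.0987).

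Of 21 genes of the phosphoinositide kinase, AKT and FOXO branch, Foxo6 alone passed, in MEF2AD cKO. This FOXO transcription factor gene rose from 2.46 ± 0.46 to 4.40 ± 0.66 CPM (SD, n = 4; log2 of CPM + 1 0.65, SE 0.13; limma adjusted p = 0.00487). Foxo6 measured 1.90 ± 0.33 CPM in MEF2A Control and 1.45 ± 0.14 CPM in MEF2A cKO, and the MEF2AD effect exceeded the MEF2A effect by 0.89 (SE 0.19; limma adjusted p = 0.0246). Among 3 measured genes of IGF2 RNA binding and imprinting, H19, the noncoding neighbour imprinted with Igf2, rose from 5.15 ± 0.87 to 7.87 ± 0.33 CPM in MEF2AD cKO (0.54, SE 0.14; limma adjusted p = 0.0258). H19 missed the threshold without MEF2AD Control 1 or any one of the 4 MEF2AD cKO libraries (0.0512 to 0.136), with the line fitted alone (0.0537), and without MEF2AD Control 1 and MEF2AD cKO 4 together (0.41; 0.217).

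None of the 2 measured other binding proteins (Igfbp6 and Igfbp7), 4 protease inhibitors and other proteases (Stc1, Stc2, Htra1 and Adam12), 2 insulin receptors (Insr and Insrr) or 5 growth hormone axis genes passed in a knockout by limma. Stc1 and Stc2 encode stanniocalcins, which block the Pappa protease. Stc2 measured 2.05 ± 0.42 CPM in MEF2D Control and 1.57 ± 0.50 CPM in MEF2D cKO, and Stc1 was under 1.5 CPM in every library.

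The genes whose RNA was most like that of Igfbp5 over the 24 libraries, by Pearson's r of log2(CPM + 1) among 14772 genes averaging at least 1 CPM, were Ccdc63 (0.95), Rnf123 (0.94), Usp28 (0.94), Peak1 (0.93) and Xk (0.93). All were, like Igfbp5, lowest in MEF2AD cKO: Ccdc63 averaged 16.0 CPM in MEF2AD Control and 1.77 CPM in MEF2AD cKO, and Peak1 136 and 54.6 CPM. Most like Pappa were Ube2n (0.83), the granule neuron receptor subunit gene Gabra6 (0.81), Nrep (0.80), Msn (0.78) and Trhde (0.78). Gabra6 averaged 757 CPM in MEF2D Control and 1396 CPM in MEF2D cKO, and 614 and 796 CPM in the MEF2AD line. Gabra6 is 1 of the 14 granule neuron markers summed above. Between Igfbp5 and Pappa r was -0.43. These likenesses run over 6 groups chosen to differ, so they describe the pattern of group means and carry no p.

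MEF2 binding was looked for around the members. The authors listed 203 MEF2A peaks and 1388 MEF2D peaks (mm10). Within 100000 bp of a member there was 1 MEF2D peak, 98405 bp from Igfbp4 inside Rara, and no MEF2A peak. Because that window held so little, it was widened to 500000 bp after the data were seen, which took in 12 of the 1419 sites with H3K27ac counts. Of these, 3 lay nearest to Igfbp5 or Igfbp2, 5 to Igfbp3, 2 to Igfbp4, 1 to Igf1r and 1 to Pappa. There was none for Igf1, Igf2, Igf2r or Pappa2. At 11 of the 12 another protein-coding gene was closer than the member; only the site near Pappa had the member as its nearest.

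H3K27ac marks active enhancers and promoters. The 18 libraries had totals of 8694657 to 48557960 reads and the median site held 24 reads in the shallowest library and 117 in the deepest, so single sites rest on few reads. Scaling decides much here. With TMM scaling over the sites edgeR called 201 sites higher and 274 lower in MEF2D cKO, and 424 and 442 in MEF2AD cKO; with scaling by each library's total reads it called 8 and 565, and 28 and 753 (0.584% and 41.2%, then 2.04% and 54.9%, of 1371 sites). Scaling by total reads moved the median of all sites by -0.36 in MEF2D cKO and by -0.51 in MEF2AD cKO, against a median near 0 with TMM, so each site is given under both.

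The site nearest to Igfbp5 (chr1:72993026-72993316) overlaps a MEF2D peak and no MEF2A peak, 118161 bp before the Igfbp5 start and 21758 bp from Tnp1. Its H3K27ac, in RPM (reads per 1000000 total reads), was 4.12, 3.66 and 4.06 in MEF2A Control and 3.24, 3.72 and 2.95 in MEF2A cKO. In the MEF2D line it was 3.79, 3.13 and 4.39 in Controls and 2.31, 2.33 and 2.01 in cKO. In the MEF2AD line it was 3.67, 3.37 and 3.11 in Controls and 2.13, 1.63 and 2.86 in cKO. The cKO libraries lay below the Controls without overlap in the MEF2D and MEF2AD lines, as did 47.9% and 56.7% of all sites, and overlapped them in the MEF2A line.

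Relative to the other sites, by TMM, this site near Igfbp5 differed by -0.40 in MEF2D cKO (log2, SE 0.19; edgeR adjusted p = 0.0981) and by -0.28 in MEF2AD cKO (SE 0.18; edgeR adjusted p = 0.172), and was called in neither. Relative to total reads the differences were -0.76 (edgeR adjusted p = 0.00109) and -0.78 (edgeR adjusted p = 0.000199), and both were called, where 41.2% and 54.9% of sites were called lower. In MEF2A cKO they were -0.18 and -0.25 (edgeR adjusted p = 0.874 and 0.643). With TMM the MEF2AD value was -0.012 without MEF2AD cKO 2 and -0.46 without MEF2AD cKO 3 (adjusted p = 0.0169). The inputs, chromatin sequenced without the antibody, held 1 and 3 reads there (0.102 and 0.275 RPM).

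The site nearest to Pappa (chr4:64632306-64632502), 491672 bp away, overlaps a MEF2A peak and no MEF2D peak. Its H3K27ac was called higher in MEF2D cKO and MEF2AD cKO with TMM and not with total reads. It measured 2.20, 2.54 and 2.20 RPM in MEF2A Control and 1.33, 2.35 and 1.79 in MEF2A cKO. In the MEF2D line it was 1.63, 1.26 and 1.919 in Controls and 1.919, 2.21 and 2.48 in cKO, the highest Control and the lowest cKO library being nearly equal. In the MEF2AD line it was 1.65, 1.70 and 1.495 in Controls and 2.23, 2.04 and 2.21 in cKO. These cKO libraries lay above the Controls without overlap, as did 4.09% of all sites. By TMM the difference was 0.84 in MEF2D cKO (log2, SE 0.22; edgeR adjusted p = 0.00265), 0.88 in MEF2AD cKO (SE 0.20; edgeR adjusted p = 0.00017) and -0.25 in MEF2A cKO (SE 0.22; edgeR adjusted p = 0.847). With TMM 14.7% of all sites were called higher and 20% lower in MEF2D cKO, and 30.9% and 32.2% in MEF2AD cKO.

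By total reads the Pappa site differed by 0.48 in MEF2D cKO and 0.38 in MEF2AD cKO and was called in neither (edgeR adjusted p = 0.0832 and 0.115). The MEF2AD effect exceeded the MEF2A effect by 1.13 with TMM (SE 0.30; edgeR adjusted p = 0.00165) and by 0.70 with total reads (edgeR adjusted p = 0.0551). Over all sites that difference was called positive at 19.4% and negative at 26% with TMM, and at 1.53% and 41.1% with total reads. The MEF2AD and MEF2D effects at the Pappa site differed by 0.04 (SE 0.31; edgeR adjusted p = 0.971), where 0.219% of sites were called positive and 2.84% negative with TMM, and 0% and 5.84% with total reads.

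**Figure D4:**
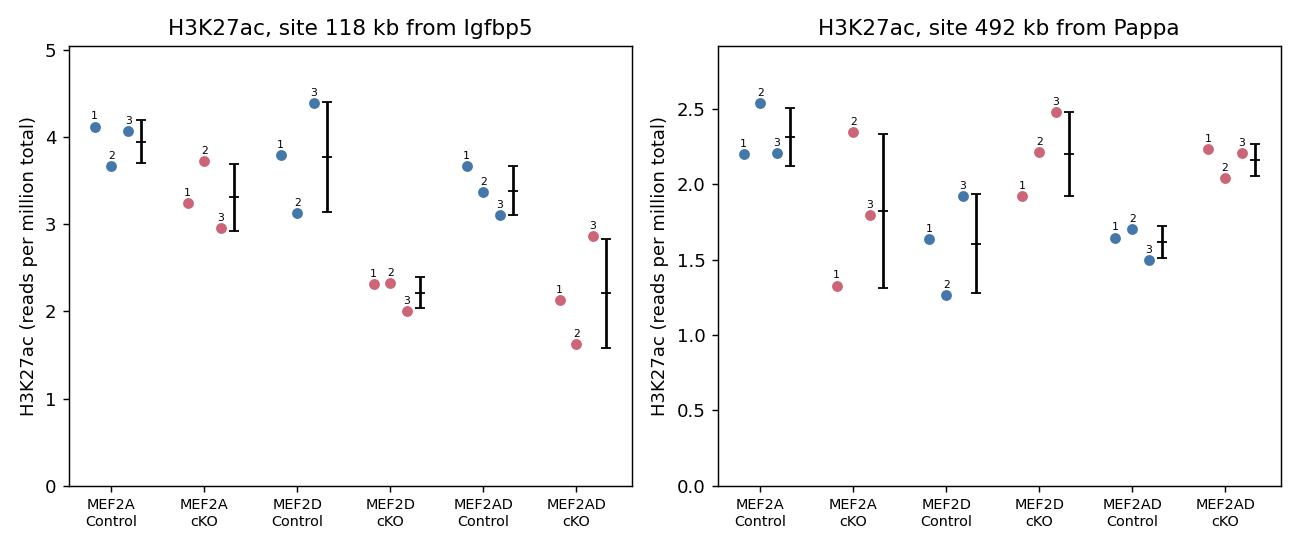
H3K27ac in RPM (reads per 1000000 total reads) at the MEF2 site nearest to Igfbp5 (left) and nearest to Pappa (right), with 1 point for each of 3 libraries a group, numbered by replicate, and the mean and SD beside them. At the Igfbp5 site the MEF2D cKO libraries (2.01 to 2.33) and MEF2AD cKO libraries (1.63 to 2.86) lie below their Controls; at the Pappa site the MEF2AD cKO libraries (2.04 to 2.23) lie above theirs (1.495 to 1.70).

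The largest H3K27ac difference near a member was at a MEF2D peak inside Smarce1 (chr11:99216135-99216498), 163480 bp from Igfbp4. It held 16, 40 and 16 reads in MEF2D Control and 1, 2 and 3 in MEF2D cKO, and 59, 30 and 14 reads in MEF2AD Control and 0, 5 and 5 in MEF2AD cKO. The difference was -3.50 in MEF2D cKO (SE 0.54; edgeR adjusted p = 6.7e-07) and -3.20 in MEF2AD cKO (SE 0.46; edgeR adjusted p = 4.0e-08) by TMM, and it was also called by total reads. The cKO libraries of both lines held 0 to 0.409 RPM there, beside 0.275 and 0.408 in the inputs. In MEF2A cKO the site went from 1.69, 1.55 and 1.58 to 0.850, 1.10 and 0.844 RPM. The groups did not overlap, as at 13.6% of all sites, which were lower in MEF2A cKO without overlap. The difference there was -0.70 (SE 0.33; edgeR adjusted p = 0.52) and was not called. Igfbp4 RNA, as given above, was called in no knockout.

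The site inside Rara, the 1 within 100000 bp of Igfbp4, was called in no knockout under either scaling (TMM log2 0.25, 0.17 and 0.22; edgeR adjusted p = 0.751, 0.454 and 0.219). The 5 sites toward Igfbp3, of which the 2 nearest lie 6944 and 7580 bp from Adcy1, were called higher with TMM in MEF2AD cKO (0.36 to 0.67) and 3 of them in MEF2D cKO. None was called by total reads, and in MEF2AD cKO 2 of the 5 then turned negative. The call in MEF2AD cKO at the site 306452 bp from Igfbp3 (0.36 with TMM) was also lost without MEF2AD Control 1 (0.28; edgeR adjusted p = 0.0836). The site on the Igf1r side, 9674 bp from Lrrc28, was lower in MEF2AD cKO by TMM (log2 -0.55, SE 0.23; edgeR adjusted p = 0.0366) and by total reads (-1.05; edgeR adjusted p = 0.000178). In MEF2D cKO it differed by -0.56 with TMM (SE 0.24; edgeR adjusted p = 0.0598) and by -0.92 with total reads (edgeR adjusted p = 0.00178), and the MEF2AD and MEF2D effects differed by 0.007 with TMM (SE 0.35; edgeR adjusted p = 0.998). The TMM call in MEF2AD cKO failed without MEF2AD Control 1 or MEF2AD cKO 1, 2 or 3 (adjusted p between 0.0506 and 0.159) and with DESeq2 (0.0747). In MEF2A cKO the same site differed by -0.72 (SE 0.24; edgeR adjusted p = 0.242). Among the 12 sites TMM thus gave 4 higher and 1 lower in MEF2D cKO and 6 higher and 2 lower in MEF2AD cKO. Over all sites TMM called 14.7% higher and 20% lower in MEF2D cKO, and 30.9% and 32.2% in MEF2AD cKO. Total reads gave 0 higher and 3 lower of the 12 in both knockouts. With total reads the shares over all sites were 0.584% higher and 41.2% lower in MEF2D cKO, and 2.04% and 54.9% in MEF2AD cKO. In MEF2A cKO edgeR and DESeq2 called none of the 12, with 2 at an unadjusted p under 0.05 in edgeR, where 0.0729% of all sites were called higher and 0% lower.

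**Figure D5:**
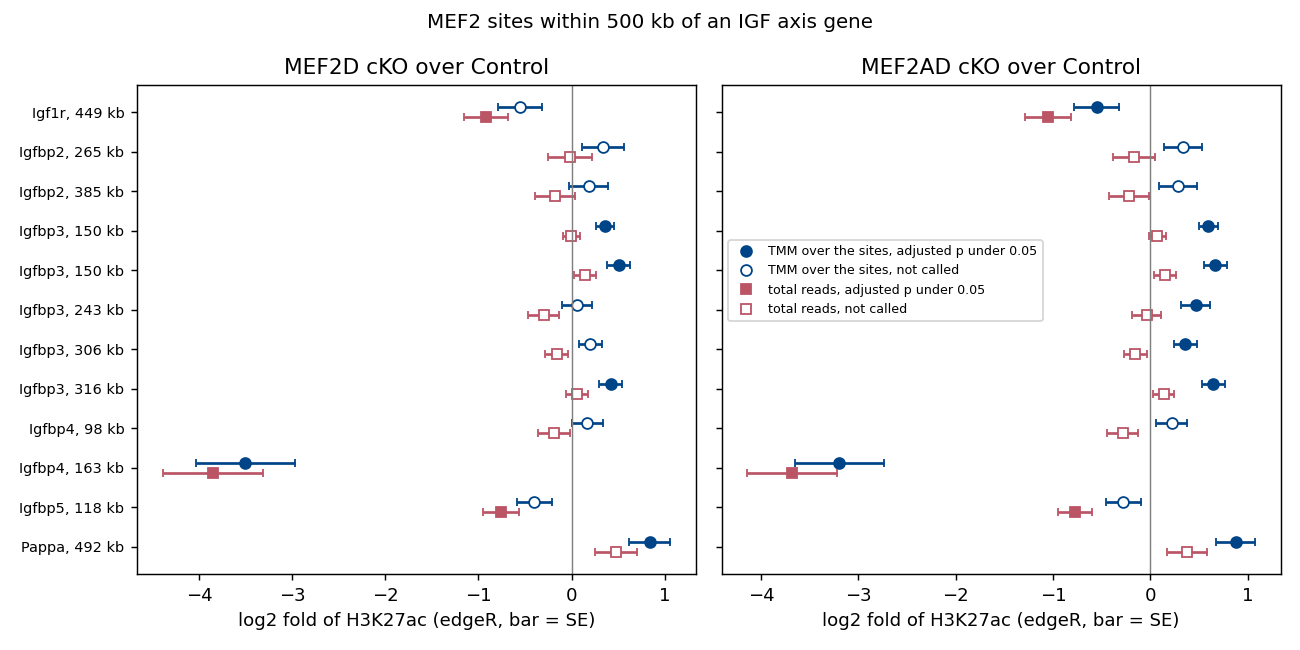
Log2 fold of H3K27ac in MEF2D cKO (left) and MEF2AD cKO (right) over Control at the 12 MEF2 sites within 500000 bp of a member, named by the nearest member and the distance. Circles are scaled by TMM over the sites and squares by total reads, filled where the edgeR adjusted p is under 0.05, with bars of 1 SE; each square lies to the left of its circle.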

How the data were processed

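RNA was extracted from cerebella per the labels' protocols. The deposited RNA table holds log2 CPM with 0.5 of a read added, per its values: undoing that gave whole reads for 100% of values (tolerance 0.05). Bowtie2 2.3.4.2, MACS2, STAR 2.6 and mm10 are named in the submitters' processing notes; how reads were counted is not stated in the labels. The deposited H3K27ac table holds raw read counts at 1419 MEF2 sites. The authors' deposited fold changes and p-values were used only where named, and 84 per-sample columns of sheets that repeat or subset these tables were not used. Of 15560 RNA rows, 91 repeats of a gene with equal values were dropped.

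RNA was tested with limma 3.58.1 (trend) on log2(CPM + 1), which understates the change of low genes, over all 24 libraries with Benjamini-Hochberg adjustment over 15469 genes and a threshold of 0.05. For the H3K27ac counts the quasi-likelihood test of edgeR 4.0.16 was used, scaled by TMM over 1372 sites that filterByExpr kept. DESeq2 1.42.0, edgeR on whole reads, other pseudocounts, filters and scalings, left-out libraries and the replicate block were alternatives. The fits were tested on simulated data; R 4.3.3 and Python 3.11.15 were used. The members and gene lists were chosen with earlier results of these data known. Signalling genes were named if called in a knockout contrast, and the 5 genes most like Igfbp5 and Pappa by Pearson's r. Same-numbered RNA libraries deviated together in the MEF2A line (r 0.19 to 0.50), which was taken as pairing. They did not in every pair of the MEF2D line (0.065 to 0.31) or the MEF2AD line (-0.20 to 0.26). In H3K27ac r was 0.092 to 0.15 in the MEF2A line, above r with the cKO libraries of other numbers, but was not taken as pairing. It was 0.029 to 0.13 in the MEF2D line and 0.0076 to 0.13 in the MEF2AD line. Positions are RefSeq GRCm38.p6, the assembly of mm10, and promoter sequences are from RefSeq.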

Additional observations from a re-analysis of the deposited data

Results flagged for a closer look

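In 3 of 54 groups of 4 libraries, 1 library's gap to its nearest neighbour exceeded the critical share of the group's range, which chance gives in about 1 in 20 groups. For Igfbp5 in MEF2A Control the gap was 0.909 of the range (372 CPM against 324 to 328), for Igfbp3 in MEF2A Control 0.865 (32.8 against 19.3 to 21.1 CPM), and for Igf1r in MEF2A cKO 0.865 (58.7 against 88.2 to 92.7 CPM).

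The MEF2AD effect differed from the MEF2A effect in Foxo6 RNA by 0.89 (limma adjusted p = 0.0246). It missed the threshold without any one of MEF2A Control 1 or 3, MEF2A cKO 3 or 4, MEF2AD Control 2 or 3, or MEF2AD cKO 1 or 3 (adjusted p between 0.0504 and 0.0711).

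The same difference, MEF2AD minus MEF2A, was called for H3K27ac by TMM at 5 of the 12 sites within 500000 bp of a member (edgeR). It was 1.13 at the site nearest to Pappa and -2.49 at the site inside Smarce1. At 3 sites toward Igfbp3, closer to Adcy1, it was 0.59, 0.68 and 0.68. Over all sites TMM called this difference positive at 19.4% and negative at 26%. By total reads only the Smarce1 site was called (-2.91; edgeR adjusted p = 0.000124). With that scaling 1.53% of all sites were called positive and 41.1% negative.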

How the results depend on the processing

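Igfbp5 and Pappa kept their direction in each line under the alternatives run, and no alternative moved either by more than the spread between replicates. Both were chosen for these directions in the same libraries, so this is no independent support. With the replicate block 116 genes were called in MEF2A cKO, 1379 in MEF2D cKO and 631 in MEF2AD cKO, and 72, 197 and 25 for MEF2AD minus MEF2D, MEF2AD minus MEF2A and MEF2D minus MEF2A; 6 signalling genes were called in MEF2D cKO and 6 in MEF2AD cKO, and 5 sites in MEF2A cKO. It changed no call of a tested member. With only the lines compared, limma called 17 genes in MEF2A cKO, 209 in MEF2AD cKO, 54 and 12 for MEF2AD and MEF2D minus MEF2A, 530 between MEF2AD and MEF2A Controls, 0 tested members in MEF2AD cKO, and 5 and 1 signalling genes in MEF2D and MEF2AD cKO; edgeR then called 10 sites in MEF2A cKO. DESeq2 called 56, 137 and 16 genes for the 3 differences, 0 sites in MEF2A cKO and 26 for MEF2AD minus MEF2D. Without MEF2AD Control 1 and MEF2AD cKO 4, 11 genes were called for MEF2D minus MEF2A and 0 tested members in MEF2AD cKO, and Igfbp3 there was -0.074. Igfbp3 in MEF2D cKO was -0.0018 with edgeR. Scaled by total reads, 0 sites were called in MEF2A cKO and 80 for MEF2AD minus MEF2D; the site near Igfbp5 was -0.76 and -0.78, that near Pappa 0.48 and 0.38 in MEF2D and MEF2AD cKO, and sites toward Igfbp3 were -0.16 and -0.039 in MEF2AD cKO and -0.0011 in MEF2D cKO. The cause of these shifts was not tested.

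Leaving out 1 library at a time gave 23 to 58 genes in MEF2A cKO, 309 to 863 in MEF2D cKO, 12 to 30 for MEF2AD minus MEF2D, 58 to 134 for MEF2AD minus MEF2A, 525 to 1257 between MEF2AD and MEF2A Controls, 0 to 1 tested members in MEF2AD cKO, 1 to 2 signalling genes in MEF2D cKO, 0 to 12 sites in MEF2A cKO and 13 to 53 for MEF2AD minus MEF2D. The counts left the 1.5-fold range without MEF2A Control 3 (27), MEF2A cKO 1 (25) or MEF2A cKO 4 (23) in MEF2A cKO, without MEF2D Control 1 (309), MEF2D Control 3 (490) or MEF2D cKO 4 (331) in MEF2D cKO, and without MEF2AD cKO 4 for MEF2AD minus MEF2D (30) and MEF2AD minus MEF2A (134). Between MEF2AD and MEF2A Controls it took MEF2A Control 1, 2 or 4 or MEF2AD Control 1, 3 or 4 (525 to 637); signalling genes in MEF2D cKO, MEF2D Control 1 or MEF2D cKO 2 or 4 (1); and sites for MEF2AD minus MEF2D, MEF2D Control 3 (17), MEF2D cKO 2 (13), MEF2AD Control 1 (23) or MEF2AD Control 2 (21). Folds that crossed 0, none of them called, ran from -0.081 to 0.25 (Igfbp3, MEF2A cKO), -0.11 to 0.11 (Igf1r, MEF2A cKO), -0.29 to 0.15 (Igfbp2, MEF2D cKO), -0.048 to 0.083 (Igfbp3, MEF2D cKO), -0.55 to 0.080 (Igfbp2, MEF2AD cKO), -0.16 to 0.16 (Igfbp3, MEF2AD cKO) and -0.12 to 0.026 (Igf1r, MEF2AD cKO). The site near Igfbp5 in MEF2AD cKO ran from -0.46 to -0.012. Widening the window from 100000 to 500000 bp, chosen after the data were seen, took the sites from 1 to 12. Sites with a median of 24 reads in the shallowest library limit small H3K27ac differences.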
